A study of Mus musculus with 4 samples.

Results

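The interleukin-1 (IL-1) family cytokines measured in this mouse epidermis were 10 genes, Il1a, Il1b, Il18, Il33, Il1f6, Il1f8, Il1f9, Il1f10, Il1f5 and Il1rn, out of 19938 named genes and 35556 probe sets on the arrays. A probe set was taken where the platform annotation gave it exactly 1 symbol equal to that of a member. Each of the 10 had 1 such probe set, so no choice between probe sets arose and no member was lost to a filter. Il1f6, Il1f8, Il1f9 and Il1f5 are the older names of Il36a, Il36b, Il36g and Il36rn, the genes of the 3 IL-36 agonists and of the IL-36 receptor antagonist. Epidermis was cut by laser from sections of hairless hindpaw skin of 2 mouse lines. In the noggin line the K14 promoter, active in basal keratinocytes, drives noggin, a secreted antagonist of bone morphogenetic proteins (BMPs), and in the BMP4 line the same promoter drives the ligand BMP4. Strips numbering 8 to 10 came from each of 6 animals per line, and every array carried RNA pooled from 3 animals, which gave 2 noggin arrays and 2 BMP4 arrays. Numbers given for an array are log2 probe set intensities, and differences are noggin minus BMP4 on that scale. Both lines are transgenic, non-transgenic skin was not analysed here, and the labels give no age, sex or strain.

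IL-1 family cytokines are made by many cells and act through paired receptors of the Toll/IL-1 receptor family, which recruit the adaptor MyD88 and switch on NF-kappaB and MAP kinases. Keratinocytes store the precursor of IL-1 alpha and release it on injury, and they are a main source of the IL-36 cytokines, which act on the epidermis itself. IL-1 beta and IL-18 are cut to their active form by caspase-1 in inflammasomes. The IL-1 receptor antagonist, encoded by Il1rn, and the IL-36 receptor antagonist, encoded by Il1f5, occupy the receptors without signalling.

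Most of the family had higher log2 values in noggin than in BMP4 epidermis. The lower noggin array exceeded the higher BMP4 array in 7 of 10 members, Il18, Il1f8, Il1a, Il1f9, Il1f6, Il1f10 and Il1f5, where 15.7% of all genes had that order. The differences of these 7 ran from 0.27 to 0.78 log2 units, or 1.21-fold to 1.71-fold. Il1rn alone was lower on both noggin arrays, an order found in 17.9% of all genes, and the groups overlapped for Il1b and Il33. The median difference over the 10 members was 0.54, against -0.0064 over all genes. No member passed the test across all probe sets (limma, Benjamini-Hochberg adjusted p from 0.736 to 0.991), and neither did any other probe set, which makes the share called 0%. At an unadjusted p below 0.05 the same fit gave 1994 of the 35556 probe sets. At that level 6 members were higher in noggin, where 2.18% of genes were, and 0 were lower, where 2.1% of genes were. A difference of at least 0.5 log2 units, a limit chosen after the values were seen, was reached by 5 members, Il18, Il1f8, Il1a, Il1f9 and Il1f6, and by 1.68% of genes. With 2 arrays against 2 an exact two-sided permutation test of a single gene gives p = 0.333 at the least.

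**Figure D1:**
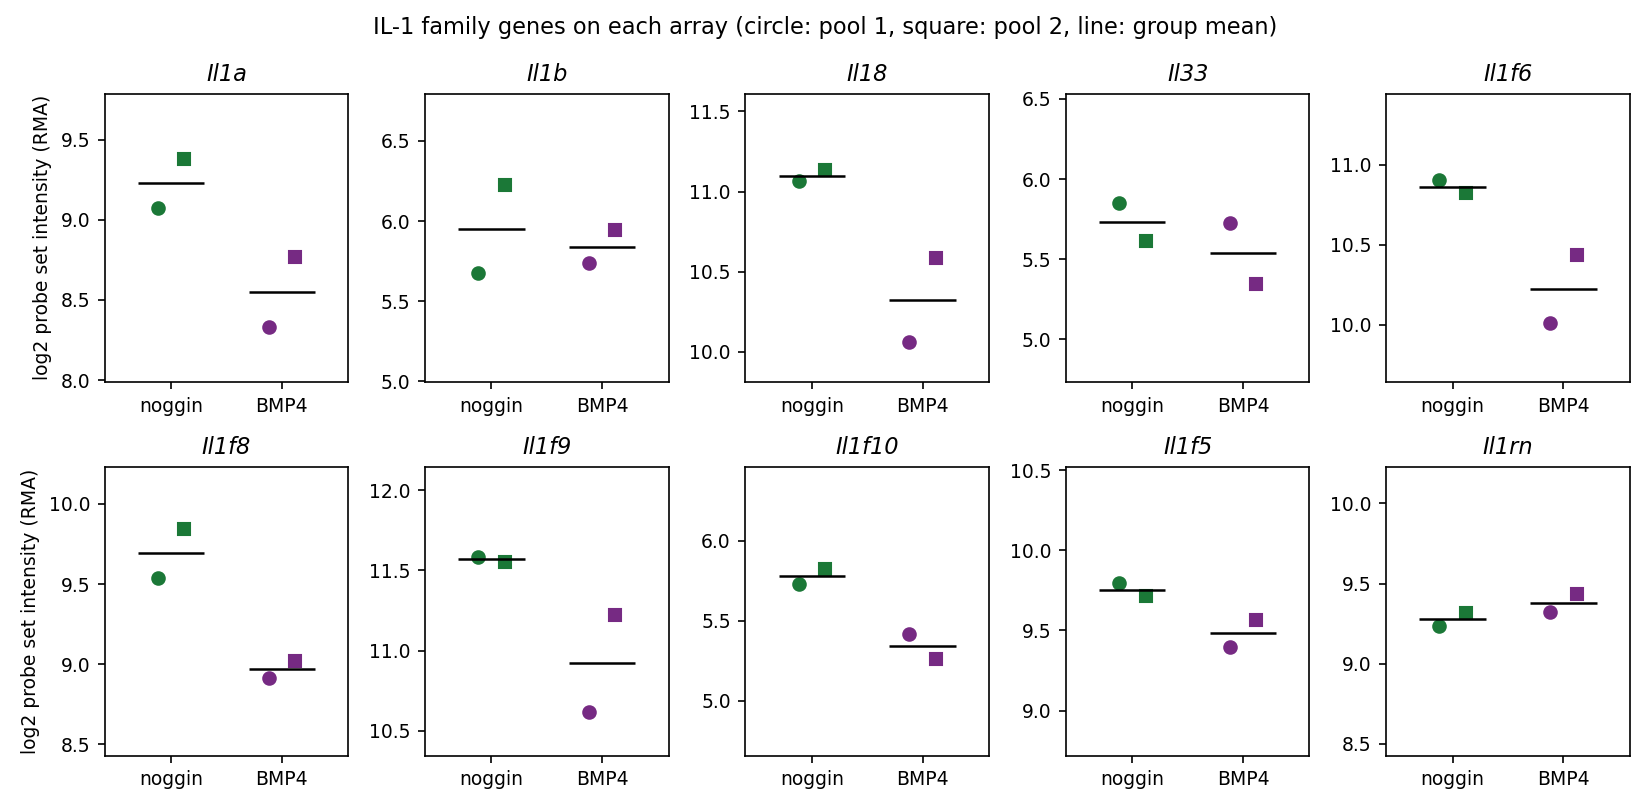
Log2 probe set intensity (y axis) of each of the 10 genes on the 2 noggin and 2 BMP4 arrays; circles are pool 1, squares pool 2 and lines group means, and each panel spans the same number of log2 units. The groups are separated for 8 genes, with noggin lower only for Il1rn, and overlap for Il1b and Il33.

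Keratinocyte markers were nearly level between the lines. The 9 analysed (Flg, Dsg1a and Dsc1 were not analysed here), among them Krt5, Krt14, Krt1, Krt10 and the palmoplantar keratin Krt9, summed to 58269 and 58245 on the noggin arrays and to 58616 and 58096 on the BMP4 arrays on the linear intensity scale. Their log2 differences stayed between -0.14 and 0.10. The array medians lay between 6.04 and 6.06. Quantile normalization, a part of RMA, holds array medians and the brightest probe sets nearly level, and Krt9 and Krt10 lie at percentiles 99.97 and 99.96. The level keratinocyte sum was therefore partly set by the processing and does not measure keratinocyte content. BMP4 replicate 1 stood apart from the other 3 arrays, with 43 genes more than 1 log2 unit above all of them and 44 more than 1 unit below, against 1 to 13 such genes on each other array. The probe set of Nog had values of 5.92 and 5.99 on the noggin arrays, against 6.13 and 6.04 on the BMP4 arrays, and that of Bmp4 7.77 and 7.86 on the noggin arrays, against 8.22 and 8.03 on the BMP4 arrays. The sources used here do not say which stretch of either transcript a transgene holds, so these values do not test the labels. In pooled tissue, fewer cells of a type and less RNA per cell cannot be told apart.

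Il18 (probe set 10585194), whose product is stored by keratinocytes as a precursor that caspase-1 cuts, had the largest difference of the family. Its log2 values were 11.07 and 11.13 on the noggin arrays, against 10.07 and 10.58 on the BMP4 arrays. The noggin arrays were nearly level, and the BMP4 arrays both lay lower and 0.52 apart. The difference was 0.78 (95% interval from 0.22 to 1.33, adjusted p = 0.819 in limma), which ranked 103rd from the top among the 19938 genes. Without BMP4 replicate 1 it was 0.52. Il1a (probe set 10487588), the gene of the IL-1 alpha alarmin, had 9.07 and 9.38 on the noggin arrays, against 8.33 and 8.77 on the BMP4 arrays. Here the spread within each line, 0.31 in noggin and 0.44 in BMP4, was large beside the gap between the lines. Its difference was 0.68 (95% interval from 0.12 to 1.24, adjusted p = 0.852), and from 0.46 to 0.90 on leaving out 1 array.

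The 3 IL-36 agonist genes were all higher on both noggin arrays. Il1f8 (probe set 10469774), which encodes IL-36 beta, had 9.54 and 9.84 on the noggin arrays, against 8.92 and 9.02 on the BMP4 arrays. Both BMP4 arrays were close together and clear of the noggin arrays. The difference was 0.72 (95% interval from 0.33 to 1.11, adjusted p = 0.736), the smallest p of the family, and it ran from 0.57 to 0.87 on leaving out 1 array. Il1f6 (probe set 10469793), which encodes IL-36 alpha, had 10.90 and 10.82 on the noggin arrays, against 10.01 and 10.44 on the BMP4 arrays. Its noggin values agreed to within 0.08, and its difference was 0.64 (95% interval from 0.16 to 1.12, adjusted p = 0.844). Il1f9 (probe set 10469786), which encodes IL-36 gamma, had 11.59 and 11.55 on the noggin arrays, against 10.62 and 11.22 on the BMP4 arrays. The gap between the BMP4 pools, 0.60, was almost as wide as the difference of 0.65 between the lines (95% interval from 0.025 to 1.27, adjusted p = 0.874). Without BMP4 replicate 1 the difference was 0.43 for Il1f6 and 0.35 for Il1f9, both more than 1.5 times smaller, as it was for Il18 among the 7 members.

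The 2 receptor antagonists had mean differences of opposite sign. Il1f5 (probe set 10469801), the IL-36 receptor antagonist, had 9.80 and 9.71 on the noggin arrays, against 9.40 and 9.57 on the BMP4 arrays. The noggin arrays were higher by a mean of 0.27 (95% interval from -0.023 to 0.57, adjusted p = 0.886), less than the difference of any of the 3 agonists, though the intervals overlap and the contrast between genes was not tested. Il1rn (probe set 10469816), the IL-1 receptor antagonist, had 9.23 and 9.32 on the noggin arrays, against 9.32 and 9.43 on the BMP4 arrays. Noggin replicate 2 and BMP4 replicate 1 were practically level. The mean difference was -0.10 (95% interval from -0.37 to 0.17, adjusted p = 0.961), and it ran from -0.16 to -0.05 on leaving out 1 array.

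Il1f10 (probe set 10469811) encodes IL-38, a family member with homology to both antagonists. Its values were 5.73 and 5.82 on the noggin arrays, against 5.42 and 5.26 on the BMP4 arrays. Noggin was higher by 0.44 (95% interval from 0.15 to 0.73, adjusted p = 0.798), with each line's arrays within 0.16 of each other. Its mean over the arrays stood at percentile 40.7 of all probe sets, a low intensity, and detection above background is unknown. Il1b (probe set 10487597), the gene of IL-1 beta, had 5.68 and 6.23 on the noggin arrays, against 5.74 and 5.94 on the BMP4 arrays. One noggin array was the lowest of the 4 and the other the highest, and the difference of 0.11 had an interval from -0.50 to 0.72. It was -0.17 without noggin replicate 2. Il33 (probe set 10462442), a nuclear alarmin of barrier epithelia, had 5.85 and 5.61 on the noggin arrays, against 5.73 and 5.34 on the BMP4 arrays. Its groups interleaved, with a difference of 0.19 and an interval from -0.30 to 0.69, and without BMP4 replicate 2 the difference was 0.0012. Like Il1f10, Il1b and Il33 lay below the median probe set, at percentiles 47.1 and 42.1.

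**Figure D2:**
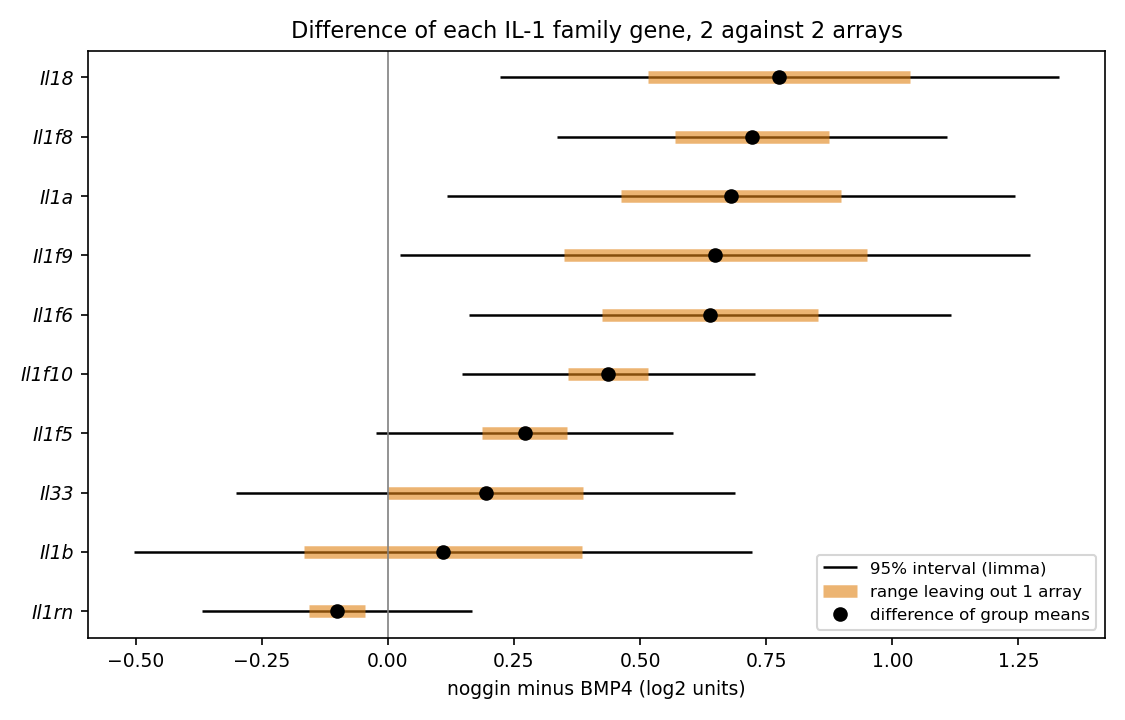
Difference of group means, noggin minus BMP4 in log2 units, for each of the 10 genes (points), with limma's 95% interval (thin lines, n = 2 arrays per group) and the range on leaving out 1 array (thick bars). The intervals of Il18, Il1f8, Il1a, Il1f9, Il1f6 and Il1f10 lie above 0, and the range without 1 array crosses 0 for Il1b only.

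Several members had similar patterns over the 4 arrays. BMP4 replicate 1 was the lowest array for 6 of the 10 members. All 6 were among the 7 higher members, where the lowest array must be a BMP4 array. The share of all genes with that array lowest was not computed. After each gene's mean was subtracted, the median of the 10 members was 0.20 and 0.29 on the noggin arrays, against -0.32 and -0.11 on the BMP4 arrays. The closest pair was Il1f6 and Il1f9, with a Euclidean distance of 0.13 log2 units between their centred values over 4 arrays, followed by Il18 and Il1f9 at 0.16 and Il18 and Il1f6 at 0.18. Among all other genes the profiles nearest to that of Il18 belonged to Ehd4, an endocytic ATPase, at 0.053, to Ocel1 at 0.11 and to Sprr2h, a small proline-rich cornified envelope gene, at 0.14. Ehd4 had 7.28 and 7.30 on the noggin arrays, against 6.24 and 6.82 on the BMP4 arrays. With only 4 arrays many genes share a profile, and this likeness is a description.

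Of the members, 6 follow each other on chromosome 2 in the RefSeq genes of GRCm38.p6, with no other protein-coding gene between them, in the order Il1f8, Il1f9, Il1f6, Il1f5, Il1f10 and Il1rn. From Il1f8 at one end, the differences were 0.72, 0.65, 0.64, 0.27 and 0.44 along the first 5 genes and -0.10 for Il1rn at the other end. The 8 nearest protein-coding neighbours, 4 on each side, had differences between -0.10 and 0.14. An unadjusted p below 0.05 was reached by 0 of the 8, where 2.18% of all genes were higher in noggin and 2.1% lower. Nxph2 (3.76 to 3.91) and Tbpl2 (3.77 to 3.95) lay below the lower quartile of every array, where detection is unknown and RMA compresses differences. Psd4, next to Il1rn, was at -0.06, and Tbpl2, next to Il1f8, at 0.13. Il1a and Il1b are neighbours elsewhere on chromosome 2 and had differences of 0.68 and 0.11. Of the 8 protein-coding genes around that pair, with differences between -0.26 and 0.37, only Sirpa, an inhibitory receptor of myeloid cells, reached an unadjusted p below 0.05, at 0.37. Il18 and Il33 lie on chromosomes 9 and 19. Close copies within the family could bind the same probes, which was not checked.

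**Figure D3:**
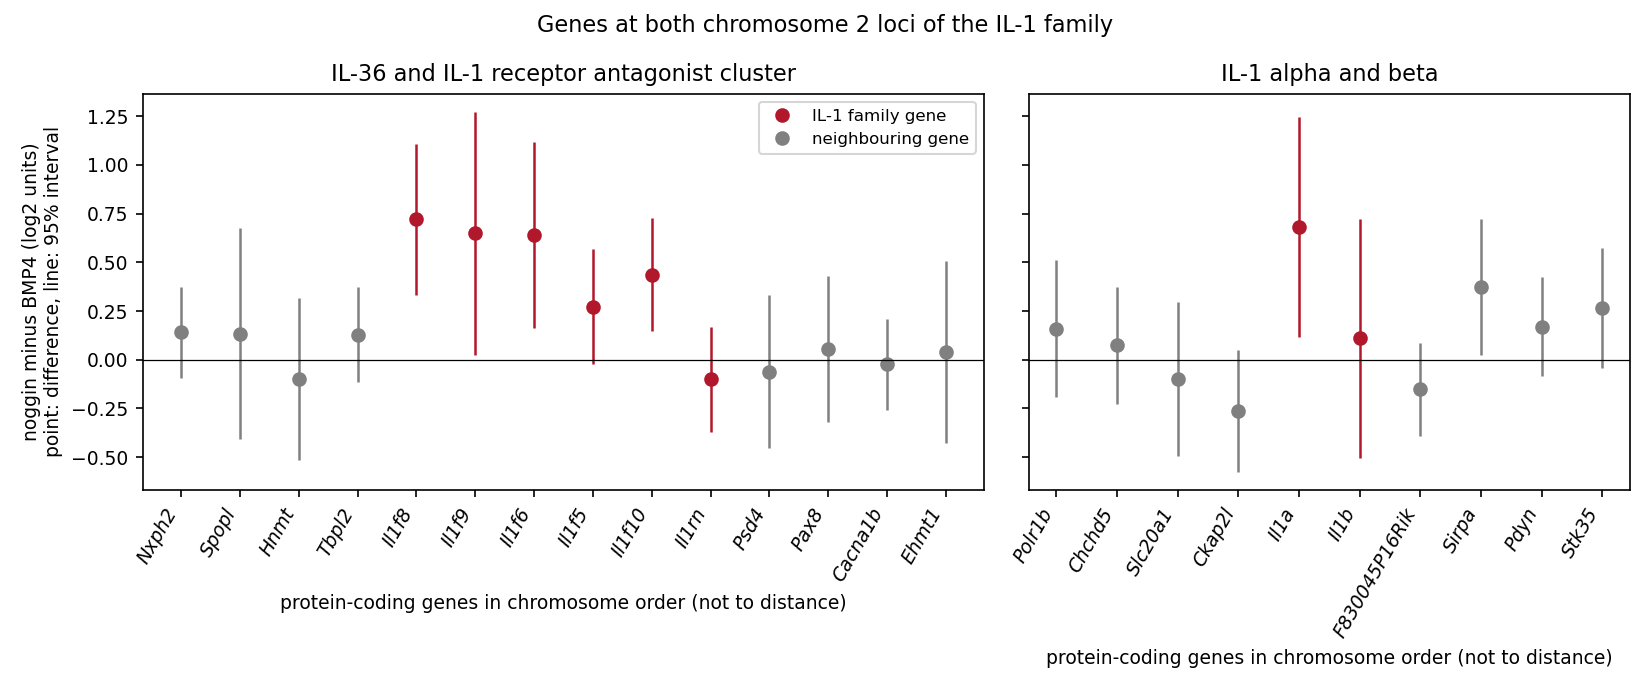
Difference noggin minus BMP4 in log2 units (points) with limma's 95% interval (lines, n = 2 arrays per group) for the protein-coding genes at both chromosome 2 loci, in chromosome order and not to distance; IL-1 family genes are red, neighbours grey. The differences of the first 5 cluster genes lie between 0.27 and 0.72, those of Il1rn and its locus's 8 grey neighbours between -0.10 and 0.14, and those of the 8 grey neighbours of Il1a and Il1b between -0.26 and 0.37.

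The stretches of 250 bases before the annotated starts were read for 9 of the 10 members from the RefSeq promoter table (GRCm38.p6), which gives 13 starts for them. Il1f6 was not in that table. The AP-1 motif TGANTCA, bound by Jun and Fos factors of stressed keratinocytes, was searched on both strands and occurred before 3 of the 13 member starts and before 6.75% of all 32851 starts. The 3 genes were Il1f8 and Il1a, which had higher noggin values, and Il1rn, which did not. Their sequences are shown because they set the same motif beside differences of 0.72, 0.68 and -0.10. They are given 5′ to 3′ on the gene's strand with the motif in capitals, at chr2:24152922-24153171 (plus strand) for Il1f8, chr2:129309973-129310222 (minus strand) for Il1a and chr2:24336610-24336859 (plus strand) for Il1rn.
Il1f8: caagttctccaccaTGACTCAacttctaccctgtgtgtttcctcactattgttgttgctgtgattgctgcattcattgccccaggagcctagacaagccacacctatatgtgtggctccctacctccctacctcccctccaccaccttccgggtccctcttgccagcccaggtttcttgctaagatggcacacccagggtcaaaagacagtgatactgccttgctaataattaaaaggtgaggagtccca
Il1a: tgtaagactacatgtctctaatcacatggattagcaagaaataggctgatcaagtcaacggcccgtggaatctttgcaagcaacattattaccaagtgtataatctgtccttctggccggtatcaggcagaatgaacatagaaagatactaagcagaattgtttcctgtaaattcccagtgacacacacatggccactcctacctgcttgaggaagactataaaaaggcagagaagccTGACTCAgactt
Il1rn: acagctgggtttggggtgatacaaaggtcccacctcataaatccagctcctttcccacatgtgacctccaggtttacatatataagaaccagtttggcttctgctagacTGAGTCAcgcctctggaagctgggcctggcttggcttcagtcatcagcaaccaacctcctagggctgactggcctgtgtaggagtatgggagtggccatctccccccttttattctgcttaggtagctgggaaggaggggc

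The motif began 236 bases before the start of Il1f8, 12 bases before that of Il1a and 141 bases before that of Il1rn. The loose NF-kappaB pattern GGGNNNNNCC was present before 4 member starts, of Il1f5, Il1f10 and Il1rn, and before 45.8% of all starts. The GC-rich SMAD motif GGCGCC was in 0 of the 13 member windows and in 9.59% of all. The motifs can overlap each other, and a match describes letters in a window and is not a binding site.

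Among the receptors and soluble inhibitors of the family, 9 of the 11 genes listed were analysed (Il1r1 and Il1rl1 were not analysed here), 0 passed across all probe sets, and the median difference was 0.04 (from -0.02 to 0.10 on leaving out 1 array). Il1r2, the decoy receptor that binds IL-1 without signalling, had 9.25 and 9.82 on the noggin arrays, against 8.25 and 8.50 on the BMP4 arrays. Its difference of 1.16 (95% interval from 0.52 to 1.81, adjusted p = 0.742) was larger than that of any cytokine of the family. Il18r1, the ligand-binding IL-18 receptor chain, had 6.59 and 7.22 on the noggin arrays, against 5.60 and 6.21 on the BMP4 arrays. Its arrays were separated by line but spread by more than 0.6 within each, with group means of 6.90 in noggin and 5.91 in BMP4 (95% interval of the difference from 0.12 to 1.88, adjusted p = 0.869). The partner chain Il18rap differed by 0.16, and 0.03 without BMP4 replicate 1. Il1rl2, the IL-36 receptor, had 9.11 and 9.26 on the noggin arrays, against 9.18 and 8.94 on the BMP4 arrays, with overlapping groups and a difference of 0.12. Il1rap, the signalling chain shared by the IL-1, IL-33 and IL-36 receptors, differed by -0.14, Sigirr, an inhibitory receptor, by -0.18, and Il18bp, which neutralises IL-18, by 0.03. Il1rapl1 and Il1rapl2, at -0.08 and 0.04, were below the lower quartile of every array, where detection is unknown.

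Among genes that process the cytokines, Casp4 and Ctss had the largest differences. Ctss was at 1.05 (95% interval from -0.49 to 2.58), and at 0.30 without BMP4 replicate 1. Of 16 genes, 8 were separated with noggin higher and 0 with noggin lower, orders found in 15.7% and 17.9% of all genes. None passed across all probe sets, and the median difference was 0.06, from 0.04 without BMP4 replicate 1 to 0.15 without BMP4 replicate 2. Casp1, the protease that activates IL-1 beta and IL-18, had 9.66 and 9.93 on the noggin arrays, against 9.47 and 9.19 on the BMP4 arrays. The difference was 0.46 (95% interval from 0.024 to 0.90, adjusted p = 0.874). Casp4, the inflammatory caspase that senses lipopolysaccharide in mice, had 8.30 and 9.18 on the noggin arrays, against 7.12 and 8.02 on the BMP4 arrays. The arrays of each line lay far apart, and the difference of 1.17 had an interval from -0.07 to 2.41. It was 0.72 without BMP4 replicate 1 and 0.73 without noggin replicate 2. Gsdmd, which forms the pore for cytokine release, differed by 0.29 (interval from 0.0082 to 0.57), and Aim2, a sensor of cytosolic DNA, by 0.69 (interval from -0.20 to 1.57), though 0.34 without noggin replicate 2 and 0.42 without BMP4 replicate 1. The adaptor Pycard did not separate, with 10.50 and 10.33 on the noggin arrays, against 10.30 and 10.55 on the BMP4 arrays. Nlrp3 was 0.13 higher in noggin, and Nlrp1a and Nlrc4 lay below the lower quartile of all 4 arrays.

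Downstream signalling genes had no shared direction of their means. Of the 20 genes analysed, means were higher in noggin for 10 and lower for 10. The groups were separated with noggin higher for 7 and with noggin lower for 3, orders found in 15.7% and 17.9% of all genes. The median difference of the 20 was -0.0025, at most 0.08 on leaving out 1 array. An unadjusted p below 0.05 was reached by 0 of the 20, where 2.18% of all genes were higher in noggin and 2.1% lower. Irak4, Chuk and Nfkb1 were not analysed here. The 4 genes with the smallest p were Tab1 at -0.24, Tnfaip3, which encodes the NF-kappaB inhibitor A20, at 0.29, the kinase Map3k7 at -0.23 and the kinase Mapk14 at 0.30. Single arrays moved all 4 by over 1.5 times, to -0.16 for Tab1 without BMP4 replicate 2, to 0.15 for Tnfaip3 and -0.11 for Map3k7 without noggin replicate 1, and to 0.14 for Mapk14 without BMP4 replicate 1. The adaptor Myd88 was 0.18 higher and Nfkbiz, a nuclear cofactor induced by IL-1 and IL-36, was at 0.0041.

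Genes that IL-1 or IL-36 can induce in keratinocytes were higher in noggin for 19 of 24, where 9538 of the 19938 genes were, with 12 separated in that direction and 2 in the other, against 15.7% and 17.9% of all genes. Their median difference was 0.16, but 0.26 without noggin replicate 1, 0.11 without noggin replicate 2 and 0.093 without BMP4 replicate 1. None passed across all probe sets. At an unadjusted p below 0.05 in limma, 5 were higher in noggin and 0 lower, where 2.18% and 2.1% of all genes were. The list was chosen with earlier results of these data known, so its counts beside these shares are a description and not a test. S100a9 and S100a8, the calprotectin subunits, were at 1.89 (95% interval from 1.30 to 2.47, adjusted p = 0.636) and 2.49 (interval from 1.14 to 3.84). Steap4, a metalloreductase, had 6.07 and 6.43 on the noggin arrays, against 5.63 and 5.73 on the BMP4 arrays, a difference of 0.57. Saa1, an acute-phase apolipoprotein, differed by 1.40, with both BMP4 arrays below the lower quartile. Tslp, an epithelial cytokine, was the fifth gene at that level, at 0.31, with 2 arrays below the lower quartile. Lcn2, a siderophore-binding protein, was separated at 0.74, and 0.35 without noggin replicate 2. The neutrophil chemokine Cxcl1 was 0.17 higher in noggin. Il6, Csf2, Cxcl2 and Vnn3 lay below the lower quartile on all arrays, where detection is unknown. Cxcl2 and Vnn3 are among the 12 genes separated with noggin higher. Defb4, an antimicrobial beta-defensin, was at -2.55 with 1 array deciding its value. Defb4 had 4.38 and 4.08 on the noggin arrays, against 8.75 and 4.83 on the BMP4 arrays, and without BMP4 replicate 1 its difference was -0.59. Defb3 was at -1.57 with overlapping groups, and at -0.47 without BMP4 replicate 1. Saa3, at 2.12, was high only on noggin replicate 2, and without that array its difference was 0.13.

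**Figure D4:**
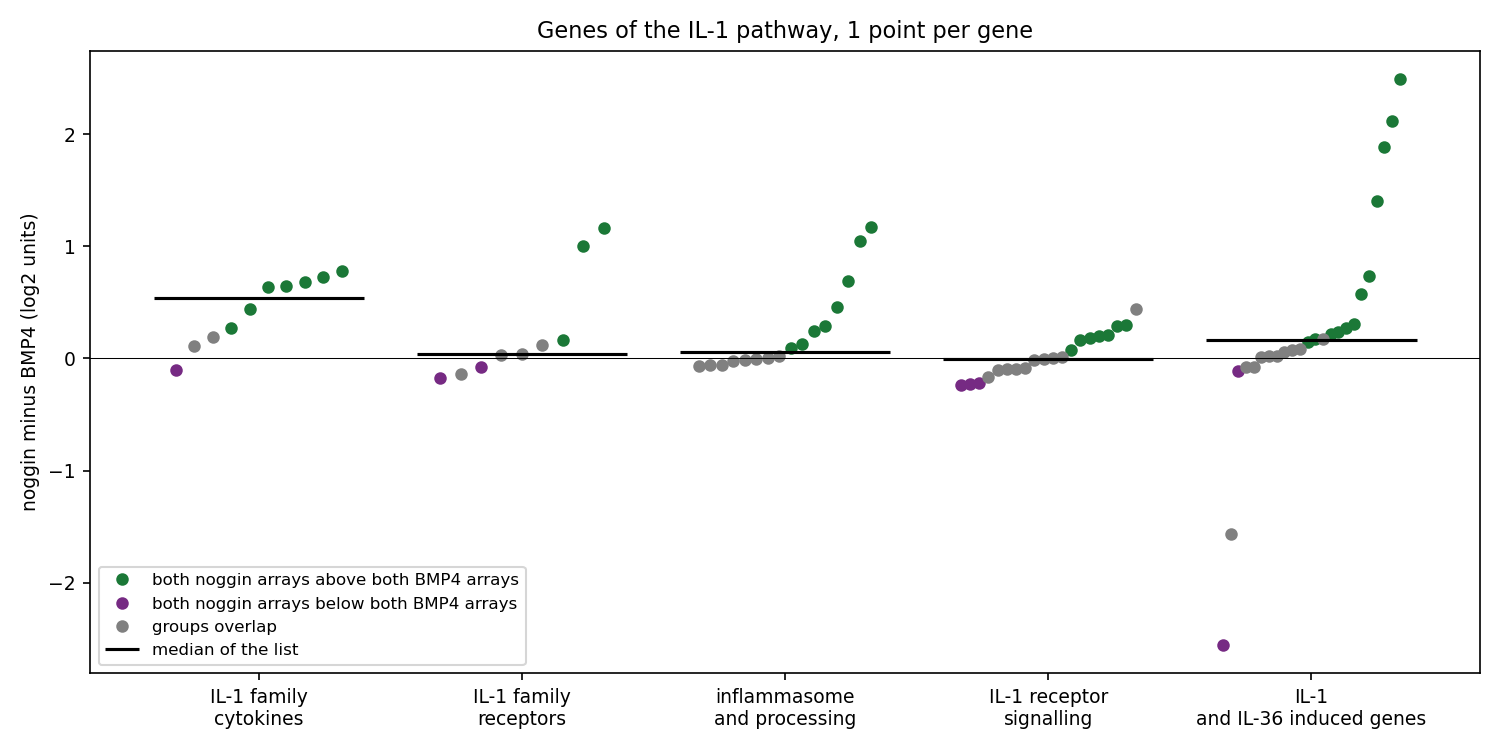
Difference noggin minus BMP4 in log2 units for each gene (points, sorted within a list) of the 10 cytokines, 9 receptors and soluble inhibitors, 16 processing genes, 20 signalling genes and 24 induced genes; colours give whether the 2 arrays of each line are separated and black lines are list medians. The cytokine median is 0.54, and the other list medians lie between -0.0025 and 0.16.

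Several lists of immune cell markers also had higher means in noggin, and their part in the differences of the family was not tested. Of the 12 Langerhans cell and macrophage markers, 11 had a higher mean in noggin and 7 were separated with noggin higher, where 15.7% of all genes were. Their summed linear intensity was 3394 to 3770 on the noggin arrays and 1568 to 2933 on the BMP4 arrays, and 0 of the 12 lay below the lower quartile on every array. Cd207, the gene of the Langerhans cell lectin langerin, had 7.21 and 7.28 on the noggin arrays, against 6.48 and 6.86 on the BMP4 arrays. The median difference of these 12 markers was 0.66, and 0.27 without BMP4 replicate 1. The median of the cytokines was 0.54, and 0.41 without that array, and the lists were not compared by a test. All 6 T cell markers analysed had a higher mean in noggin. Their sums overlapped, at 946 to 1032 on the noggin arrays and 715 to 959 on the BMP4 arrays. Thy1, the brightest of the 6 and so the largest part of each sum, had overlapping groups. Its values were 8.88 and 8.97 on the noggin arrays, against 8.57 and 9.07 on the BMP4 arrays. Of the 6, 2, Cd3g and Cd247, were separated with noggin higher, against the same 15.7%. Cd3g was at 0.80, and 0.43 without BMP4 replicate 1, while the other 5 lay between 0.05 and 0.37. Of the 12 neutrophil markers 7 were higher, with overlapping sums of 723 to 893 on the noggin arrays and 715 to 806 on the BMP4 arrays. Cxcr2, the brightest of them, made the largest part of each sum. It had 8.71 and 9.15 on the noggin arrays, against 8.89 and 8.70 on the BMP4 arrays. The defining marker Ly6g was below the lower quartile on all arrays, as were Ltf, Mmp8 and Trem1. Mast cell markers were higher for 6 of 8, at sums of 506 to 530 on the noggin arrays and 407 to 505 on the BMP4 arrays, with Ms4a2 below the lower quartile throughout. Skeletal muscle markers were higher for 9 of 10. Their sums overlapped, at 3298 to 6725 on the noggin arrays and 1853 to 4199 on the BMP4 arrays. Dermal fibroblast markers were higher for 3 of 8. Their sums also overlapped, at 4138 to 4224 on the noggin arrays and 3380 to 4838 on the BMP4 arrays.

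**Figure D5:**
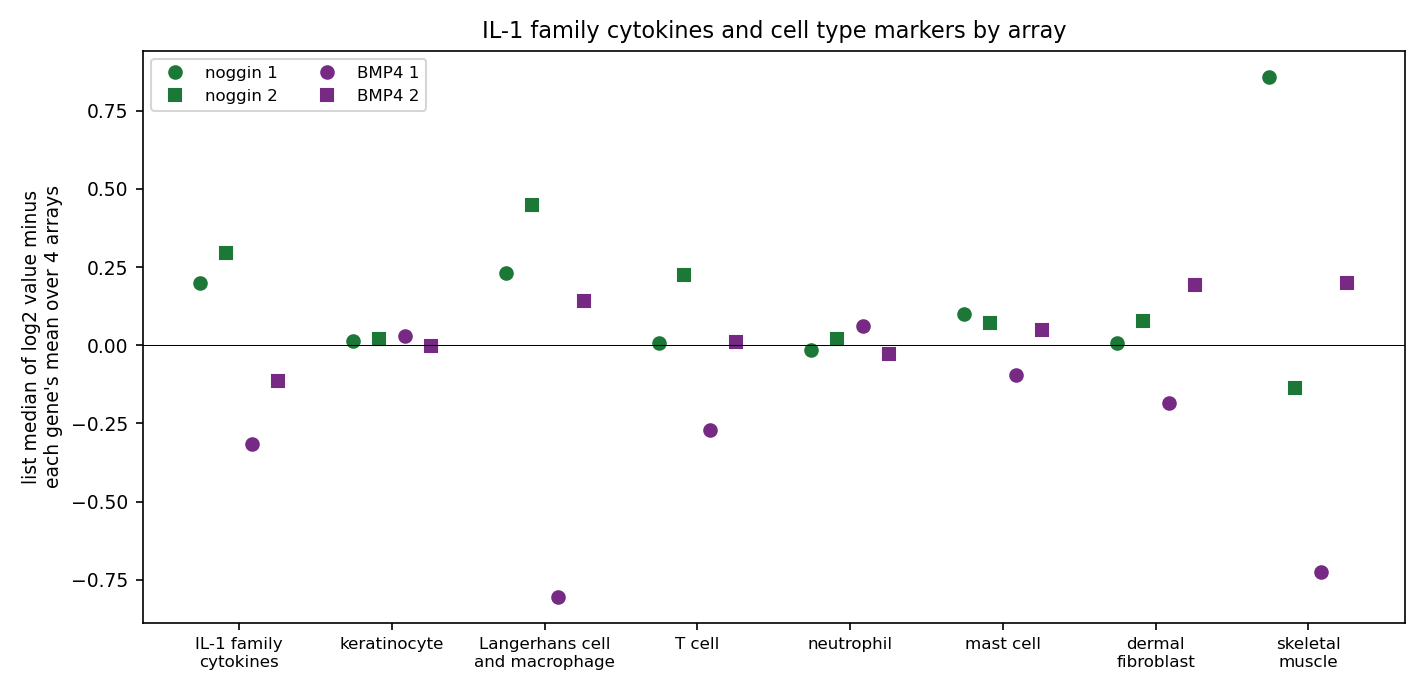
Median over each list of the log2 value minus the gene's mean over the 4 arrays (y axis, log2 units), for the IL-1 family cytokines and 7 lists of cell type markers; green is noggin, purple BMP4, circles replicate 1 and squares replicate 2. Keratinocyte markers lie near 0 on all arrays, and BMP4 replicate 1 is the lowest array for the cytokines (-0.32) and for the Langerhans cell and macrophage (-0.80), skeletal muscle (-0.73), T cell (-0.27), dermal fibroblast (-0.18) and mast cell (-0.10) markers.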

How the data were processed

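RNA from laser-captured epidermis was amplified by the NuGEN pico protocol and biotin-labelled, per the labels' protocols. The authors deposited log2 intensities per probe set, made with Affymetrix Expression Console and RMA, per the submitters' processing notes, which give no version or settings. RMA normalizes quantiles, which removes overall signal differences between arrays, and it compresses differences of dim probe sets. Detection calls were not used here. Precision is limited by having 2 arrays per line.

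The line was the single term of a linear model per probe set, in limma 3.58.1 under R 4.3.3, moderated by eBayes with 2 residual and 2.08 prior degrees of freedom. Two-sided p-values from limma were adjusted over the 35556 probe sets by Benjamini-Hochberg at 0.05, and intervals are 95% intervals of the same model. A gene was represented by its brightest probe set with 1 symbol. Folds were computed as powers of 2. The replicates are pools of different animals. The code was tested on simulated data.

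Members, lists and alternatives were chosen with earlier results of these data known, so list counts beside the shares of all genes are descriptions. Genes named were the 10 members, the 4 genes of smallest p in each pathway list, all receptors, the 3 profiles nearest to the member with the largest difference, and the transgenes. Other genes (Cd207, Cd3g, Tslp, Lcn2, Ctss, Pycard, Nlrp3, Nlrp1a, Nlrc4, Myd88, Nfkbiz, Cxcl1, Cxcl2, Il6, Csf2, Vnn3, Defb3, Defb4, Saa3, the markers and the chromosome neighbours) were named after their values were seen. Plots used Python 3.11.15 with matplotlib 3.10.9.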

Additional observations from a re-analysis of the deposited data

How the results depend on the processing

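Over the 8 alternatives that kept all arrays, no member passed the adjusted threshold in limma (smallest adjusted p 0.616). The median of the family ran from 0.53 to 0.54. The block, the trended and robust forms of eBayes, the dim filter and probe set averaging leave a member's difference unchanged by design. Median centring shifts all genes alike. The direction was thus open mainly under renewed quantile normalization and cyclic loess, where every member kept it. With the replicate block the median was 0.54 and 5 members, against 6 without it, lay at an unadjusted p below 0.05. Same-numbered arrays share only a number (correlation -0.12 between their deviations from the group means), and the block changed no call, with 0 probe sets passing in limma and 1736 at an unadjusted p below 0.05. Crossed pairs, added after seeing the data, gave 0 and 2441. On leaving out 1 array, with the lone array assumed to vary like the other line, the median of the family ran from 0.41 (without BMP4 replicate 1) to 0.57. Members whose groups are separated cannot change direction there. Of Il1b and Il33, whose groups overlap, only Il1b changed direction. Il1b ran from -0.17 to 0.38. The number of members at an unadjusted p below 0.05 was 3 and 1 when the first and the second noggin array were left out, and 4 and 5 for the BMP4 arrays, beside 2455, 1776, 1745 and 2241 of the 35556 probe sets in the same fits, all with fewer arrays. Averaging the probe sets of each gene gave 1163 of 19938 genes at that level, against 1994 of 35556 probe sets. Without dim probe sets, which left 7 receptor genes and 12 processing genes, the list medians were 0.12 and 0.19, against 0.04 and 0.06. Il1rn, the member with a lower mean in noggin, ran from -0.16 to -0.05 on leaving out 1 array, where its separated groups fix the sign.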
